A study of Mus musculus with 4 samples.

Results

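The enzymes described here make serine and pass its carbon into the folate cycle. They are 10 genes, chosen by name, of the 49997 genes in the deposited tables: Phgdh, Psat1 and Psph for serine synthesis, and Shmt1, Shmt2, Mthfd1, Mthfd2, Mthfd1l, Aldh1l1 and Aldh1l2 for folate chemistry. Shmt2, Mthfd2, Mthfd1l and Aldh1l2 encode the 4 mitochondrial enzymes, and the other 6 are cytosolic. RNA came from explants of the mouse aorta-gonad-mesonephros region (AGM), the embryonic site where blood stem cells emerge. All explants were C57BL/6J, taken at E10.5 and E11.5 (days after conception) according to the growth protocol, where the series design names E10.5 alone, and kept on filters in hydrocortisone-containing medium for 48 hours. In 2 libraries the explants were untreated, and in 2 they were exposed to 5 µM CCCP, a protonophore that dissipates the proton gradient across the inner mitochondrial membrane. Nothing in the labels says whether the libraries of a group came from separate embryos or cultures, so the p-values measure the spread between these libraries, which may be technical.

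Serine is built from an intermediate of glycolysis. Phgdh oxidises it, Psat1 adds an amino group and Psph removes the phosphate. Serine hydroxymethyltransferases then split serine into glycine and a carbon unit carried by tetrahydrofolate. In mitochondria Mthfd2 oxidises that unit and Mthfd1l releases it as formate, which cytosolic Mthfd1 loads onto folate again for purine and thymidylate synthesis. Aldh1l1 in the cytosol and Aldh1l2 in mitochondria instead burn formyl folate to carbon dioxide. Several of these genes are known targets of Atf4, the transcription factor of the integrated stress response, and their induction is a well-described feature of mitochondrial dysfunction in cultured cells.

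The cell type label names embryonic stem cells of the blood, while the extraction protocol describes RNA of whole explants. The summed level of 9 mesenchymal markers was 3307 to 5722 CPM (reads per 1000000 counted, with library sizes adjusted by TMM) per library, against 182 to 244 CPM for 14 markers of blood stem and progenitor cells. Kit, the stem cell factor receptor, had 47.6 to 63.2 CPM and Ptprc, the leukocyte antigen CD45, 3.39 to 6.85 CPM. Markers of blood stem and progenitor cells were thus detected, at a lower summed level than those of mesenchyme. In such bulk RNA, fewer cells of a type and less RNA per cell cannot be told apart. The libraries held between 37360968 and 48827826 counted reads, replicate 1 being the deeper in each group, and between all pairs of libraries Pearson's r of log2 CPM across genes was 0.965 to 0.979.

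RefSeq start-site windows on GRCm38.p6, from 250 bases before to 50 after each start, were matched for 9 of the 10 genes, Aldh1l2 being the other. They were searched on both strands for TGATGNAA (the response element shared by C/EBP and ATF factors), CACGTG (an E-box), CCAAT, GCGCATGCGC (the palindrome bound by NRF1) and TGACGT (part of the CREB element). The last 3 were added after the sequences had been read, the NRF1 palindrome as it stands in the Shmt2 window, so that its match there is given by construction. No member window held TGATGNAA or CACGTG, which occur in the windows of 4.51% and 8.09% of all genes. CCAAT was found in 7 of the 9 genes, against 41.1% of all genes. Among the members GCGCATGCGC occurred in Shmt2 alone, against 1.07% of all genes, and TGACGT in Mthfd1l and Psph, against 8.37%. These are matches of letters, not shown sites, and a missing match says only that the letters are not in the window. The 250 bases before the start are shown for 4 genes that the results below turn on, 5′ to 3′ on the gene's own strand with matches in capitals: Phgdh (chr3:98339970-98340219, minus strand), Shmt2 (chr10:127522445-127522694, minus), Mthfd2 (chr6:83317605-83317854, minus) and Aldh1l1 (chr6:90550543-90550792, plus). The start used for Mthfd2 lies inside the span counted for that gene.
Phgdh: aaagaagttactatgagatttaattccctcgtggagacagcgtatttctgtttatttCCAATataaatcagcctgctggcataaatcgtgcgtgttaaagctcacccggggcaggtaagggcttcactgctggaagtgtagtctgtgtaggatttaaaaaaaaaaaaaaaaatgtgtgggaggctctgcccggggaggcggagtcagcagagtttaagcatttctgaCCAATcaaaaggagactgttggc
Shmt2: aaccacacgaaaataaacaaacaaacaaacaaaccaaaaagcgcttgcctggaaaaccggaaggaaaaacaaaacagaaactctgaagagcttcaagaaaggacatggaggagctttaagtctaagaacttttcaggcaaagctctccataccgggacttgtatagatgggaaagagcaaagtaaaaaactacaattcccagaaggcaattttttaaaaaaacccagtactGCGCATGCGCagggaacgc
Mthfd2: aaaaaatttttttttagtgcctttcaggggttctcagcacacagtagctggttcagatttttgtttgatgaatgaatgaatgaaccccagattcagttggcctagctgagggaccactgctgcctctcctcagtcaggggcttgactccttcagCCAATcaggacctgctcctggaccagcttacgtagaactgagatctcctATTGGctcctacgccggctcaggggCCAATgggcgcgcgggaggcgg
Aldh1l1: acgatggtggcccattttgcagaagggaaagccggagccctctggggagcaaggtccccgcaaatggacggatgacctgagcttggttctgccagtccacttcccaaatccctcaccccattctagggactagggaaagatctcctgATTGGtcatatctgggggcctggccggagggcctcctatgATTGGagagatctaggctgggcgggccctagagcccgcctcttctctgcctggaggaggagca
In the sequence of Mthfd2 the capitals mark 3 CCAAT boxes, 2 as written and 1 on the other strand, and in that of Phgdh 2 as written. The capitals of Shmt2 mark the NRF1 palindrome, whose first base lies 19 bases before the start, and those of Aldh1l1 mark 2 CCAAT boxes on the other strand.

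With CCCP, 0 of the 10 genes passed the test against untreated explants (edgeR's quasi-likelihood test, adjusted p below 0.05 by Benjamini-Hochberg over the 19837 genes that passed the filter, all 10 among them). Over all genes this fit called 0%, and DESeq2 called 0 of the 10 against 2.99% of all genes. At an unadjusted p under 0.05 there was 1 member, Aldh1l1, lower in CCCP, against 14.6% of all genes in either direction. In CPM the groups did not overlap for 2 members, Aldh1l2 (higher in CCCP, as for 24% of all genes) and Aldh1l1 (lower, as for 24.8%). The fitted log2 fold change was above 0 for 9 of the 10, against 49.2% of all genes tested, with a median of 0.22 against -0.01. That count rests on 1 library. In 8 members untreated replicate 1 was the lowest of the 4 libraries, as it was for 31.7% of all genes. Without it 5 of those 8 had a log2 fold change below 0. The log2 difference between the untreated libraries had a median of 0.73 over the members, replicate 2 over replicate 1, and 0.00 over all genes. It exceeded the fitted difference between the groups in the same 8 members, against 51.9% of all genes.

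**Figure D1:**
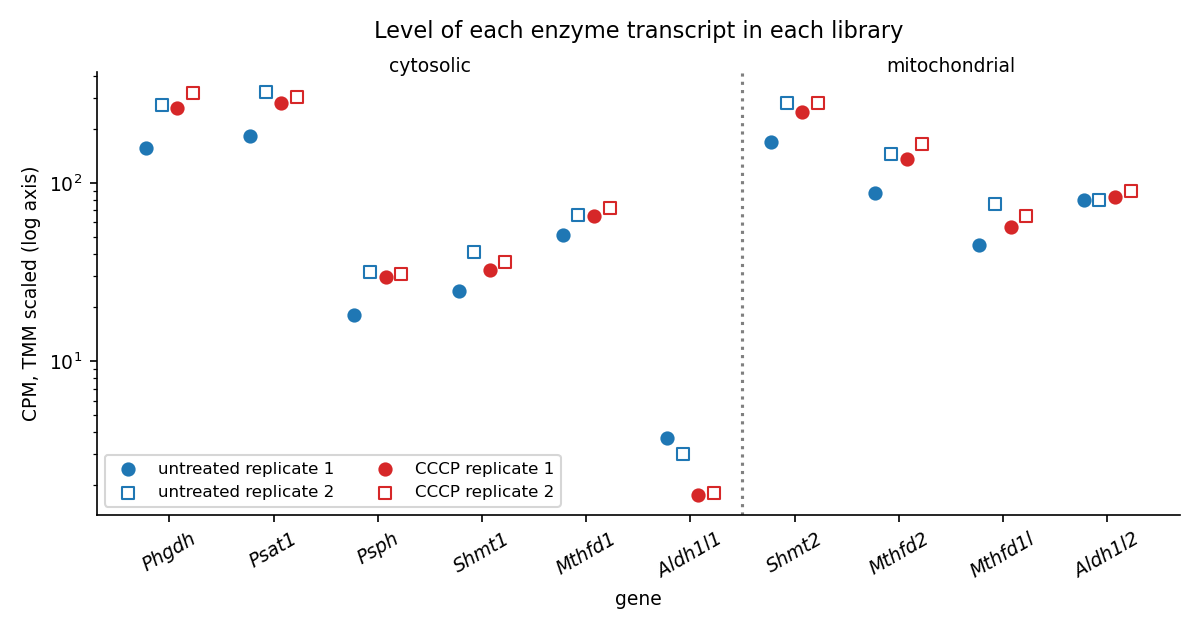
Level of each enzyme transcript (CPM, TMM scaled, log axis) in the 4 libraries, 1 point per library, blue for untreated and red for CCCP, filled circles for replicate 1 and open squares for replicate 2; cytosolic enzymes stand left of the dotted line. Untreated replicate 1 is the lowest point in 8 genes, while Aldh1l2 is nearly level and Aldh1l1 is lower in both CCCP libraries.

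Phgdh (chromosome 3, 98313171 to 98339969), which catalyses the committed step of serine synthesis, had 157 and 273 CPM in untreated replicates 1 and 2, and 264 and 319 CPM in CCCP replicates 1 and 2. CCCP replicate 1 thus lay below untreated replicate 2, and the groups overlapped. The log2 fold change was 0.44 (standard error 0.267, adjusted p 0.481 in edgeR), the highest value among the members. Leaving out untreated replicate 1 gave 0.10 (adjusted p 0.836), and leaving out untreated replicate 2 gave 0.92 (adjusted p 0.066). Phgdh has many processed copies in the mouse genome: 47.8% of the 50-base stretches of its annotated transcripts also occur in transcripts of 20 other genes, so its count is uncertain. The rows of 17 such copies held 116 and 154 reads in untreated explants against 709 and 153 in CCCP explants, between 1.32% and 5.54% of the Phgdh count. CCCP replicate 1 was the high library there, and it also gave the largest share of its reads to annotated pseudogenes as a whole, 2.17% against 1.29% to 1.66%.

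Psat1 (chromosome 19, 15905123 to 15925059), the aminotransferase of the pathway, had 183 and 325 CPM in untreated and 281 and 305 CPM in CCCP explants. Both CCCP values lay between the untreated ones. Psph (chromosome 5, 129765558 to 129787443), the phosphatase of the last step, had 18.1 and 31.5 CPM in untreated and 29.8 and 30.7 CPM in CCCP explants, again inside the untreated range. The log2 fold changes were 0.21 (standard error 0.263) and 0.29 (0.262), with edgeR adjusted p-values of 0.737 and 0.628, and both were below 0 without untreated replicate 1 (-0.14 and -0.05). All 3 serine synthesis genes were thus 1.74 to 1.77 times higher in untreated replicate 2 than in untreated replicate 1. Per exon length (TPM, read counts divided by exon length and scaled to the same sum in each library), Phgdh and Psat1 stood at 360 and 293 on average over the 4 libraries and Psph at 20.7, the lowest after Aldh1l1.

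Shmt2 (chromosome 10, 127517123 to 127522444), which splits serine in mitochondria, had 170.0 and 280.0 CPM in untreated and 249 and 282 CPM in CCCP explants. Shmt1 (chromosome 11, 60788897 to 60811265), its cytosolic counterpart, had 24.6 and 41.1 CPM in untreated and 32.4 and 36.0 CPM in CCCP explants. The groups overlapped for both, with log2 fold changes of 0.24 (standard error 0.239, edgeR adjusted p 0.659) and 0.06 (0.247, adjusted p 0.929). Untreated replicate 2 exceeded replicate 1 by 1.65-fold for Shmt2 and 1.67-fold for Shmt1.

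Mthfd2 (chromosome 6, 83305704 to 83326011), the mitochondrial dehydrogenase and cyclohydrolase, had 87.9 and 145 CPM in untreated and 137 and 165 CPM in CCCP explants. CCCP replicate 1 lay below untreated replicate 2. Its log2 fold change of 0.38 (standard error 0.245, edgeR adjusted p 0.505) was second to that of Phgdh, and was 0.07 and 0.81 without untreated replicates 1 and 2. Mthfd1l (chromosome 10, 3972892 to 4167081), the mitochondrial formate producer, had 44.7 and 76.0 CPM in untreated and 56.9 and 64.8 CPM in CCCP explants. Both CCCP values lay inside the untreated range and the log2 fold change was 0.01 (standard error 0.249, edgeR adjusted p 0.988). Its sign changed when replicates were left out, to -0.31 without untreated replicate 1 and 0.48 without untreated replicate 2. Mthfd1 (chromosome 12, 76254406 to 76319820), the cytosolic enzyme that takes formate back into folate, had 51.1 and 66.1 CPM in untreated and 65.2 and 72.4 CPM in CCCP explants. Its untreated libraries were closer, at a ratio of 1.29, and its log2 fold change was 0.23 (standard error 0.157, edgeR adjusted p 0.518), or 0.07 without untreated replicate 1.

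The formyl folate dehydrogenases did not follow the other genes. Aldh1l2 (chromosome 10, 83487447 to 83534146), the mitochondrial form, had 79.96 and 79.9 CPM in untreated and 82.9 and 89.7 CPM in CCCP explants. The untreated libraries were nearly equal and both CCCP libraries lay above them, by a log2 fold change of 0.11 (standard error 0.112, edgeR adjusted p 0.661). In TPM, however, Aldh1l2 had 39.6 and 34.7 in untreated and 34.8 and 34.9 in CCCP explants, and the groups overlapped. Mean TPM was lower in CCCP explants for Aldh1l2, Mthfd1l (36.9 against 32.8) and Shmt1 (41.3 against 38.0), while the other members kept their direction. Aldh1l1 (chromosome 6, 90550768 to 90599171), the cytosolic form, had 3.70 and 2.99 CPM in untreated and 1.77 and 1.82 CPM in CCCP explants, on 185, 112, 86 and 66 counts. Both CCCP libraries lay below both untreated ones, with a log2 fold change of -0.90 (standard error 0.311, unadjusted p 0.0272, adjusted p 0.296 in edgeR), and leaving out 1 library at a time gave -1.01 to -0.73. Of the 10 genes, 6 have exons that overlap an annotated gene on the opposite strand (Shmt2, Mthfd1l, Aldh1l2, Psph, Mthfd1 and Aldh1l1), and reads were assigned without regard to strand, so their counts are less certain.

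**Figure D2:**
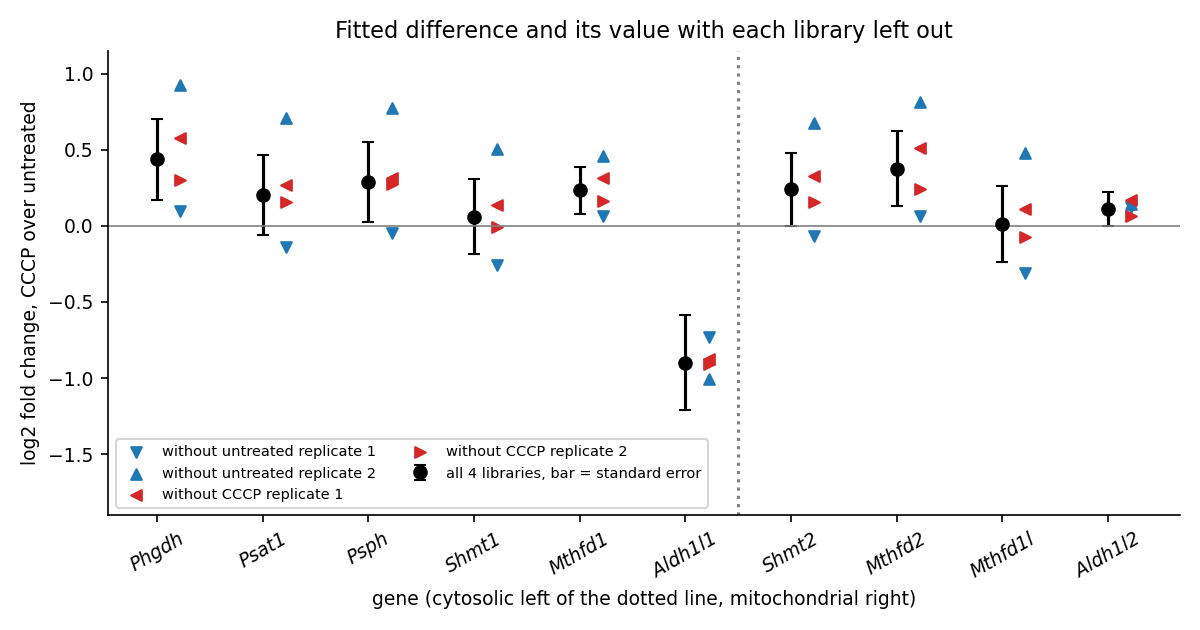
Log2 fold change of CCCP over untreated for each enzyme (y axis), black points from all 4 libraries with bars of 1 standard error, and triangles for the same fit with 1 library left out. Leaving out untreated replicate 1 (blue, pointing down) brings 8 genes near or below 0. Leaving out untreated replicate 2 (blue, pointing up) raises them to between 0.46 and 0.92. With 1 library left out at a time, Aldh1l1 stays below 0, at -1.01 to -0.73, and Aldh1l2 lies between 0.06 and 0.17.

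Ratios within a library do not depend on its scaling. They can still carry trends with exon length and GC content, for which they were not corrected. Over all genes Spearman's correlation of the log2 fold change was -0.35 with exon length and 0.38 with GC content. The gap between the untreated libraries was small in ratios among Phgdh, Psat1, Psph, Shmt1, Shmt2, Mthfd2 and Mthfd1l, but not in those with Mthfd1, Aldh1l1 or Aldh1l2. The ratio of Shmt2 to Aldh1l2, for example, was 5.75 in untreated replicate 1 and 9.48 in untreated replicate 2. Per exon length, Shmt2 stood 6.79 and 6.71 times above Shmt1 in untreated explants and 7.56 and 7.69 times above it after CCCP. Both CCCP ratios were thus higher than both untreated ones. The ratio of Mthfd2 to Mthfd1l, successive enzymes of the mitochondrial branch, was 3.77 and 3.65 in untreated and 4.60 and 4.89 in CCCP explants, also without overlap. That of Phgdh to Psat1 was 1.14 and 1.12 in untreated and 1.25 and 1.40 in CCCP explants. For Aldh1l2 over Aldh1l1 it was 11.4 and 14.0 in untreated and 24.6 and 25.9 in CCCP explants. That of Mthfd2 to Mthfd1 overlapped, at 2.94 and 3.74 in untreated and 3.57 and 3.90 in CCCP explants. The ratio of Mthfd1l to Mthfd1, however, was 0.779, 1.02, 0.777 and 0.797 in the same order of libraries, and untreated replicate 2 stood apart there. Of the 45 possible pairs of members, 27 had ratios that did not overlap between the groups, 9 of them pairs with Aldh1l1, and 18 did among the 36 pairs without it. Over all pairs of tested genes the share was 44.2%, so the count among pairs without Aldh1l1 lay near the background. Pairs that share a gene are not independent, and the smallest two-sided p of an exact permutation test is 0.333 for 2 libraries against 2, so no test of a ratio is given.

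**Figure D3:**
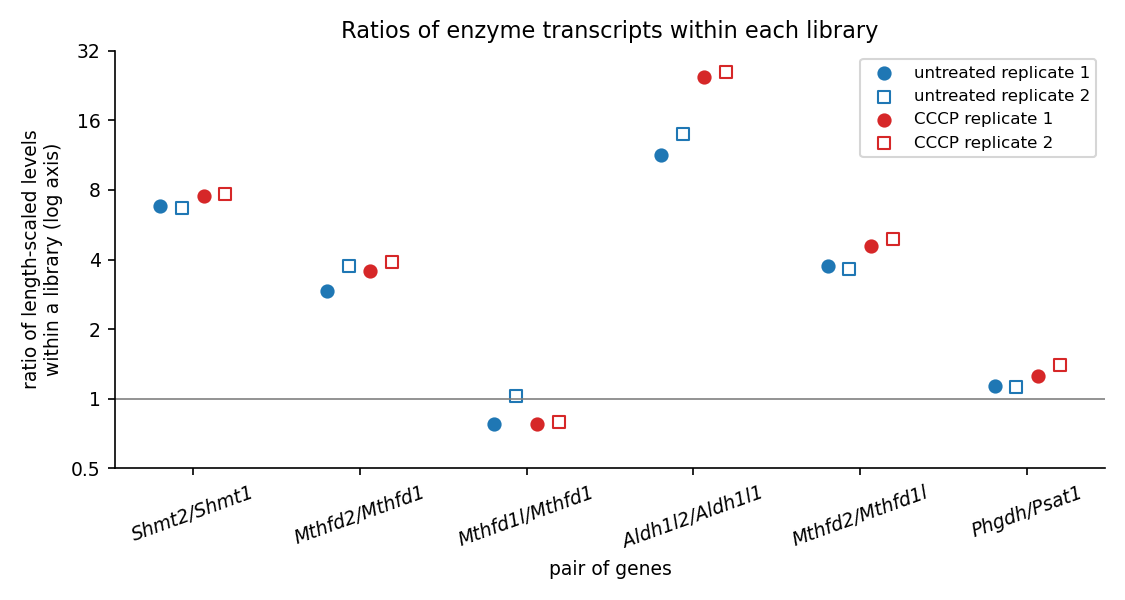
Ratio of the length-scaled levels of 2 enzymes within each library (log axis), 1 point per library, blue for untreated and red for CCCP, filled circles for replicate 1 and open squares for replicate 2. The ratios of Shmt2 to Shmt1 and of Mthfd2 to Mthfd1l are close between the untreated libraries and higher in both CCCP libraries, and that of Aldh1l2 to Aldh1l1 runs from 11.4 to 25.9.

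Mitochondrial enzymes made up 84.5% and 85.7% of the summed TPM of the 7 folate enzymes in untreated explants and 86.1% and 86.6% with CCCP. Over all 10 enzymes the order was the opposite, with a mitochondrial share of 41.4% and 39.6% in untreated explants and 39.3% and 39.4% with CCCP. Shmt2 and Mthfd2 carried most of this, at 284 and 146 TPM on average, against 36.0 for Aldh1l2 and 34.9 for Mthfd1l. Among cytosolic folate enzymes Mthfd1 and Shmt1 stood at 41.2 and 39.6 TPM and Aldh1l1 at 2.18. The mean log2 CPM of the 4 mitochondrial members minus that of the 6 cytosolic members was 1.22 and 1.23 in untreated and 1.32 and 1.38 in CCCP explants. From the fitted values the difference between the groups was 0.13 on this log2 scale, and it was -0.06 when Aldh1l1 was left out, so that its sign depended on that 1 gene. The difference without Aldh1l1 was 0.56, 0.40, 0.39 and 0.43 by library, in the order untreated replicates 1 and 2 and CCCP replicates 1 and 2. The groups overlapped there.

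Aldh1l1, an enzyme abundant in liver, had the same order of groups as liver transcripts. All 12 hepatic markers were lower in both CCCP libraries (24.8% of all genes were), with a median log2 fold change of -4.87. None passed in edgeR and 7 passed in DESeq2, which called 2.7% of all genes lower. Their summed level was 1569 and 913 CPM in untreated and 6.49 and 73.5 CPM in CCCP explants. Alb, the serum albumin gene, had 376 and 151 CPM in untreated and 0.165 and 11.1 CPM in CCCP explants, and Afp, its fetal relative, 860 and 577 against 1.69 and 44.9 CPM. Untreated replicate 1 was the higher untreated library for Aldh1l1, Alb and Afp alike. Of the CCCP libraries, replicate 2 was far higher for Alb and Afp, while Aldh1l1 was nearly level at 1.77 and 1.82 CPM. The log2 fold change of Aldh1l1 was -0.90, against the hepatic median of -4.87. Some other liver-enriched folate and methyl-group enzymes, named after their values were seen, had the same order of groups, while the groups overlapped for Sardh, Sds and Cth, which liver also expresses. Bhmt, the betaine-homocysteine methyltransferase, had 96 and 42 counts in untreated libraries and 0 in both CCCP libraries, at least 21.0-fold lower with a floor of 3 counts per library. Ftcd, a folate enzyme of histidine breakdown, had 74 and 27 counts against 2 and 2. Gnmt, the glycine methyltransferase, had 148 and 49 counts against 15 and 26. The genes nearest to Aldh1l1 in profile, by Euclidean distance of centred log2 CPM over the 4 libraries, were Paxbp1 (0.04), LOC115487097 (0.05) and Apoc1 (0.06). None of the 12 hepatic markers was among them. They were picked as the closest of the tested genes over only 4 libraries, so the small distances say little. The part of liver-type RNA in the value of Aldh1l1 was not tested.

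Summed tissue markers differed between the libraries, for mesenchyme, kidney and gonad mainly between replicates 1 and 2 of both groups. The mesenchymal sum came mostly from Col1a1, Col1a2 and Col3a1, and not every gene of that list differed in this way. Twist1, named after its values were seen, had 103 and 106 CPM in untreated and 139 and 141 CPM in CCCP explants. In untreated replicate 1, in which the other enzymes were low, mesenchymal markers were 5722 CPM against 3307 in untreated replicate 2, 4790 in CCCP replicate 1 and 3685 in CCCP replicate 2, and kidney and gonad markers 287 CPM against 187, 269 and 185. Erythroid markers were lowest in untreated replicate 1, at 2433 CPM against 2660 to 4712 in the other libraries. Endothelial markers were 486 and 636 CPM in untreated replicates 1 and 2, and 506 and 485 CPM in CCCP replicates 1 and 2. Neural and neural crest markers lay between 1111 and 1300 CPM in the 4 libraries and macrophage markers between 165 and 245 CPM. The part of these differences in the levels of the enzymes was not tested.

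Of 20 further genes of folate use and transport, all tested, 0 passed in edgeR and 1, Ftcd, was called lower in DESeq2 (2.7% over all genes). The log2 fold change was above 0 for 15 of them (49.2% over all genes), and 8 were higher and 3 lower without overlap (24% and 24.8% over all genes). The median was 0.12, or 0.09 without untreated replicate 1 and 0.25 without untreated replicate 2. Atic, which joins the last carbon onto purines, had 86.0 and 117 CPM in untreated and 122 and 133 CPM in CCCP explants, a log2 fold change of 0.33 (adjusted p 0.418 in edgeR). Gart, an earlier purine enzyme that uses formyl folate, had 0.27 (adjusted p 0.490), and Tyms, thymidylate synthase, 0.34 (0.496). Without untreated replicate 1 the values were 0.13 for Atic, 0.09 for Gart and 0.09 for Tyms. Mthfd2l, the close relative of Mthfd2, had 25.2 and 26.7 CPM in untreated and 27.1 and 29.2 CPM in CCCP explants, at 0.12 (adjusted p 0.700). Slc25a32, the mitochondrial folate carrier, went the other way, with 17.4 and 14.1 CPM in untreated and 10.6 and 13.8 CPM in CCCP explants, a log2 fold change of -0.37 (0.467). The gene with the highest log2 fold change of the list was Folr1, a folate receptor, singled out after its value was seen, with 10 and 14 counts in untreated against 65 and 17 in CCCP explants (1.68, adjusted p 0.353).

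Among 15 genes of glycine metabolism and serine transport, 0 passed in edgeR and 2 higher genes passed in DESeq2 (0.297% over all genes). Without overlap 5 genes were higher and 1 lower (24% and 24.8% over all genes). The median was 0.03, or 0.07 without untreated replicate 1 and 0.21 without untreated replicate 2. The 2 were transporters whose untreated libraries were close. Slc6a9, a glycine transporter, had 57.6 and 58.1 CPM in untreated and 80.9 and 89.3 CPM in CCCP explants, a log2 fold change of 0.56 (adjusted p 0.181 in edgeR and 0.0214 in DESeq2). Slc1a4, a carrier of serine and other neutral amino acids, had 99.9 and 104 CPM in untreated and 140 CPM in each of the CCCP libraries, at 0.46 (0.206 and 0.0488). Gcat, which breaks down threonine to glycine, had a log2 fold change of 0.57 (adjusted p 0.227 in edgeR), and Gldc, of the glycine cleavage system, -0.15 (0.840), with both CCCP values inside the untreated range.

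The methionine cycle and transsulfuration list had 10 of 11 genes tested, of which 0 passed in edgeR and 3 passed in DESeq2, all lower (Bhmt, Bhmt2 and Dmgdh, which are liver-enriched). DESeq2 called 2.99% of all genes. Without overlap 4 genes of the list were lower and 0 higher (24.8% and 24% over all genes). The median was -0.17, or -0.33 without untreated replicate 1. Ahcy, the adenosylhomocysteine hydrolase, had 0.33 (edgeR adjusted p 0.486), Mat2b, a regulatory subunit of methionine adenosyltransferase, 0.22 (0.531), and Cbs, which opens transsulfuration, -0.84 (0.369). Without untreated replicate 1 Ahcy and Mat2b were both at 0.08.

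Of 25 Atf4-related factors and targets, 0 passed in edgeR and 2 higher genes, Herpud1 and Ddit3, passed in DESeq2. Over all genes DESeq2 called 0.297% higher and 2.7% lower. Without overlap between the groups 11 were higher and 2 lower (24% and 24.8% over all genes), and the median was 0.31. The median became 0.04 when untreated replicate 1 was left out and 0.56 when untreated replicate 2 was. Atf4 itself had 237 and 292 CPM in untreated and 327 and 326 CPM in CCCP explants, a log2 fold change of 0.31 (standard error 0.144, edgeR adjusted p 0.383). Asns, the asparagine synthetase, had 130 and 214 CPM in untreated and 205 and 235 CPM in CCCP explants, overlapping as Phgdh did, at 0.35 (adjusted p 0.519). Pck2, the mitochondrial phosphoenolpyruvate carboxykinase, had 82.3 and 119 CPM in untreated and 128 and 138 CPM in CCCP explants, at 0.41 (0.378). Herpud1, of endoplasmic reticulum protein degradation, and Ddit3, the stress factor CHOP, had closely matched untreated libraries, at 98.3 and 95.1 CPM and at 36.7 and 37.5 CPM. In CCCP explants they stood at 145 and 151 CPM and at 56.9 and 54.6 CPM. Their log2 fold changes were 0.62 and 0.59 (edgeR adjusted p 0.151 and 0.166, DESeq2 adjusted p 0.00255 and 0.0141). Without untreated replicate 1 they were 0.65 and 0.58. Both genes were named for the smallest p-values of the list, a choice that favours close replicates. Their values are therefore no contrast to those of the serine enzymes. Vldlr, a lipoprotein receptor, had -0.41 (edgeR adjusted p 0.240).

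**Figure D4:**
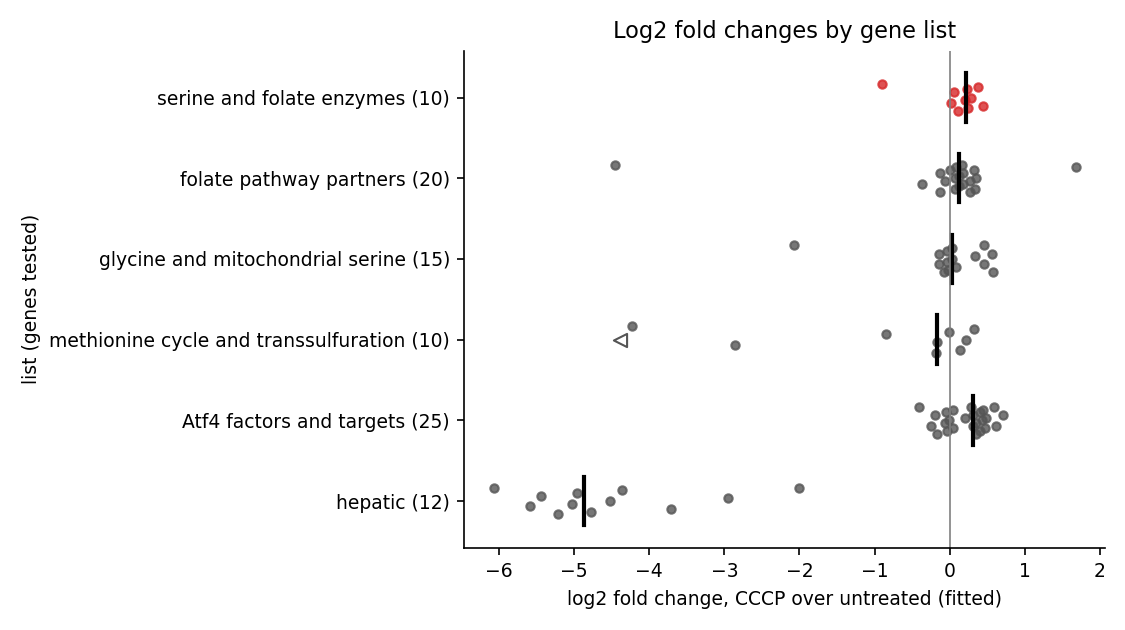
Fitted log2 fold change of CCCP over untreated (x axis) for every tested gene of each list, 1 point per gene, with the median as a black bar; the open triangle is Bhmt, drawn at its bound because both CCCP libraries had 0 counts. The members have a median of 0.22 with Aldh1l1 apart at -0.90, the hepatic list lies at -4.87, and the points below -2 in the folate, glycine and methionine lists are the liver-enriched Ftcd, Gnmt, Bhmt2, Dmgdh and Bhmt.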

How the data were processed

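Poly(A) RNA of AGM explants was sequenced in 4 libraries, grouped by sample title. Per the file headers, the authors counted reads per gene with featureCounts 2.0.3 (exons summed by gene, mm10 RefSeq annotation, no strand option, reads of a pair counted singly), and the deposited values are raw counts. The submitters' processing notes also name FastQC, HISAT2, SAMtools and the build mm10, without versions. Reads mapping to several places or genes were not counted, as neither option was set.

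Counts were tested with edgeR 4.0.16 (glmQLFit and glmQLFTest, robust off) in R 4.3.3, with TMM scaling, filterByExpr (minimum count 10, total 15) and group as the sole term, two-sided, with Benjamini-Hochberg adjustment at 0.05. A standard error is the log2 fold change divided by the square root of F. DESeq2 1.42.0 was an alternative. TPM used the deposited exon lengths. The scripts were tested on simulated data. The floor of 3 counts per library covers counting error only.

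Members and lists were chosen with earlier results of these data known. All members are named. From each pathway list the 3 smallest p-values at a mean CPM of at least 1 are named, with Atf4, Mthfd2l, Tyms, Pck2, Asns, Gldc, Alb, Afp, Kit and Ptprc, and the 3 genes nearest to the member with the smallest p. Some genes that the rule names are not reported here. Alternatives covered scaling, filter, tool, dispersion, length and GC trends (lowess, GENCODE transcripts), a replicate block and each library left out.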

Additional observations from a re-analysis of the deposited data

How the results depend on the processing

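Across 160 refitted values of the 10 members (16 alternatives each), 144 kept their direction and stayed on the same side of the threshold, 13 changed sign and 3 passed. Without untreated replicate 1, 5 changed sign: Shmt2 to -0.0683, Mthfd1l to -0.31, Psat1 to -0.14, Psph to -0.0497 and Shmt1 to -0.26. Without untreated replicate 2 the same genes were at 0.67, 0.48, 0.71, 0.77 and 0.51. Without CCCP replicate 2, Mthfd1l was -0.0760 and Shmt1 -0.0097. Mthfd1l was also -0.0396 with scaling to total counts, -0.0080 with the stricter filter (1 CPM in 2 libraries), -0.0619 with the GC trend removed and -0.0181 with the replicate block and the GC trend removed, and Shmt1 was -0.0341 with the length trend removed and -0.00999 with the GC trend removed. The cause was not tested. The number of members called was 0 in 14 of 16 other fits. With the replicate block it was 2, both higher: Phgdh (0.49, edgeR adjusted p 0.0335) and Mthfd2 (0.41, adjusted p 0.0490), while 3.8% of all genes were called higher. With the block in DESeq2, chosen after seeing the data, it was 1, Phgdh (0.49, adjusted p 0.0223). Over all genes 2.38% were called higher there. In edgeR the number of members called was 0 when a length or GC trend was removed beside the block. Phgdh then stood at 0.36 and 0.34 (edgeR adjusted p 0.0882 and 0.160) and Mthfd2 at 0.32 and 0.39 (0.0967 and 0.0955). The block in edgeR also called 8 higher and 1 lower of the Atf4-related genes, and 3 and 1 of the glycine and serine genes. All lower were its calls of 1 folate gene, 3 methionine cycle genes and 12 hepatic markers. Over all genes this fit called 3.8% higher and 6.88% lower. Deviations from the group mean correlated at 0.36 across genes between libraries of equal number, but the meaning of the numbers is not stated and there are only 2 pairs, so they were not taken as a pairing. Over all alternatives the adjusted p-value ran from 0.022 to 0.916 for Phgdh and from 0.049 to 0.927 for Mthfd2.

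Over all genes the count called was 0 with all libraries in edgeR, 594 in DESeq2, 1107 without a filter, 10 to 46 with 1 library left out, 2118 with the replicate block, 1242 with block plus length trend, 699 with block plus GC trend, and 1367 in DESeq2 with the block. The mitochondrial minus cytosolic difference of 0.13 was 0.10 to 0.16 with 1 library left out, 0.184 with the length trend removed, 0.181 with that and the replicate block, and -0.0600 without Aldh1l1 (chosen after seeing the data). Aldh1l1, with 66 to 185 counts per library, is the member most limited by depth.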
